A study of Mus musculus with 6 samples.

Results

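The complement genes C1ra, C1s1, C2, Cfb, C3ar1 and Cd55 were examined in As4.1 cells, a renin-expressing mouse line that derives from a kidney tumour of a transgenic mouse in which a renin promoter drove a viral T antigen. They were taken as every gene of a list of 9 complement components and regulators that had a probe set annotated to it alone, which gave 6 of the 18193 genes with a probe set of their own on the array, and 12 probe sets. The other 3 listed genes are not analysed here. C4b appears in the array annotation only together with another gene, and no probe set was named here for C3 or Cfd. The cells received interleukin, hydrogen peroxide or vehicle, with 2 separate cultures and 2 Affymetrix mouse genome arrays in each of the 3 groups. All groups are the same cell line, so every comparison is within 1 transformed line, and the labels give neither the kind of interleukin nor a dose or a time.

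Complement is a cascade of serum proteins that tags and lyses microbes and damaged cells. The classical pathway starts when the recognition protein C1q activates the serine protease C1r and through it C1s. C1s cleaves C4 and C2, and the cleaved C4 and C2 form an enzyme that splits C3. The alternative pathway builds a second such enzyme from C3 fragments and factor B, and membrane proteins such as CD55, also called decay-accelerating factor, take these enzymes apart on the body's own cells. The liver supplies most of the plasma proteins, while many stromal cells, fibroblasts and macrophages make components locally during inflammation.

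The deposited values are MAS5 signals, which summarise the brightness of each probe set on a linear scale. They were tested as log2 values with limma, which was fitted to all 6 arrays, and p-values were adjusted by the Benjamini-Hochberg method over 22519 probe sets with a threshold of 0.05. A probe set was tested if its geometric mean signal over the arrays was at least 193.7, and 9 of the 12 probe sets met this. Levels are arithmetic means ± SD (n = 2 arrays per group), folds are ratios of geometric means, changes are log2 differences ± the moderated standard error, and 2 arrays per group limit the precision. The trimmed mean signal was 1500.01 on every array and the median 192.2 to 232.3. Log2 signals correlated at 0.9808 to 0.9871 between arrays of 1 group and at 0.9535 to 0.9753 between arrays of different groups. Of 10 markers of smooth muscle cells, pericytes and stromal cells, 6 were bright enough to be tested, from Cspg4 at 124 to 330 to vimentin (Vim) at 52103 to 56376 on the 6 arrays. The other 4, Rgs5, Cnn1, Myh11 and Des, were too dim, and Myh11 had signals of 7.6 to 136. Renin, the marker that defines the line, is not analysed here.

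Promoters are shown for the members with a called change and an entry in the RefSeq promoter table (build GRCm38.p6), namely C1ra and C1s1, the neighbouring protease genes that rose with interleukin, and Cd55, which fell with both treatments. Of the 6 members, 4 were in the table, and C2 and Cfb were not among them. Each window runs from 250 bases before to 50 after the annotated start, 5′ to 3′ on the strand of the gene. Capitals mark matches to 4 motifs searched on both strands, which were TTCNNNGAA for STAT factors, TTGCNNAA for C/EBP factors, an NF-kappaB motif and the interferon-stimulated response element.
C1ra, chr6:124512371-124512670, plus strand: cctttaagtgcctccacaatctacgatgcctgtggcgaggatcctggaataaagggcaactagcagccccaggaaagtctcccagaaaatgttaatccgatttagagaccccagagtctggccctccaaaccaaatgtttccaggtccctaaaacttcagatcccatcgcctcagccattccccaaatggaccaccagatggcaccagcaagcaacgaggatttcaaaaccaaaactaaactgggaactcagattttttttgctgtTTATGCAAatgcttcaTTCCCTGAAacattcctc
C1s1, chr6:124542310-124542609, minus strand: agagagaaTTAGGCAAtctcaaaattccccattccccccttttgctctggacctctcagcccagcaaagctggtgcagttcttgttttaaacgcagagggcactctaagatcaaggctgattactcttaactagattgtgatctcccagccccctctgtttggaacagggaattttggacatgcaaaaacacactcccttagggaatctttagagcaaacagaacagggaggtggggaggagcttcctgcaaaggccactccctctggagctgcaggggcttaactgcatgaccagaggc
Cd55, chr1:130462695-130462994, minus strand: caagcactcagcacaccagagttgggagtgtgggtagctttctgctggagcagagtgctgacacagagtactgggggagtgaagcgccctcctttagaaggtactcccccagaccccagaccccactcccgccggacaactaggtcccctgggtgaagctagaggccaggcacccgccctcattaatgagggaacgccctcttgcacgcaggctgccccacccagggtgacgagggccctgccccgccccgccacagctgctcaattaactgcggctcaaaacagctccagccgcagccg
The C1ra window held the C/EBP letters at bases 267 to 274, on the minus strand of the window, and the palindromic STAT letters at bases 283 to 291, both after the annotated start, and the matches did not overlap. The C1s1 window held the C/EBP letters at bases 9 to 16, and a further C1s1 window with an alternative start held no match. The Cd55 and C3ar1 windows held none of the 4 motifs. Among all 32851 promoter windows given by RefSeq, 10.8% held the C/EBP letters, 8.3% the STAT letters, 3.44% the interferon element and 1.47% the NF-kappaB motif. A match describes letters in the window and is not a binding site.

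The first comparison, of interleukin with vehicle, asked which complement genes responded to the cytokine. C1ra, C1s1, C2 and Cfb, which encode some of the proteases of the classical and alternative pathways, rose, and Cd55, the membrane inhibitor, fell. All 9 tested probe sets passed the test, 6 higher and 3 lower, where 16.1% of all tested probe sets passed, 7.58% higher and 8.52% lower. The arrays of the compared groups did not overlap on any of the 9, nor on 59% of all tested probe sets. The log2 changes of the 9 ran from -1.11 to 5.91 with a median of 1.16, beside a median of -0.02 over all tested probe sets. Cfb entered the tested set only through its interleukin signal, whereas the other 8 probe sets lay above the limit on signal in all 3 groups. In bulk RNA, a change in the share of cells that express a gene and a change in RNA per cell cannot be told apart.

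C1ra, the protease that activates C1s, had signals of 18462 and 19046 with interleukin, 6947 and 5958 with hydrogen peroxide, and 5875 and 5586 with vehicle. Both interleukin arrays stood apart above the other 4. The means were 18754 ± 413 with interleukin and 5730.4 ± 204 with vehicle, a log2 change of 1.71 ± 0.10 or 3.27-fold (SE, n = 2 per group, limma adjusted p = 3.4e-06). Of all tested probe sets 0.804% had a change at least as high.

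C1s1, which cleaves C4 and C2, had signals of 21829 and 18323 with interleukin, 6744 and 6614 with hydrogen peroxide, and 8664 and 9279 with vehicle. The 3 groups did not overlap, with interleukin at the top and hydrogen peroxide at the bottom. The log2 change with interleukin was 1.16 ± 0.10, or 2.23-fold (adjusted p = 5.88e-05). The suffix of this probe set marks a possible match to several transcripts, and the near copy C1s2 could contribute to it. In the promoter sequences above, the C1ra and C1s1 windows were the windows with a C/EBP match, as were 10.8% of all windows. The further C1s1 window held none, and C2 and Cfb had no window. The part of this motif in the changes was not tested.

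C2, the classical pathway protease that C1s cleaves, was measured by 3 probe sets, and each was higher on both interleukin arrays than on both vehicle arrays. Probe set 1441912_x_at had signals of 1135 and 818 with interleukin, 752 and 706 with hydrogen peroxide, and 221 and 217 with vehicle, a log2 change with interleukin of 2.14 ± 0.23 (4.41-fold, adjusted p = 2.02e-04). Probe set 1416051_at, which has no suffix for several transcripts, had signals of 1075 and 753 with interleukin, 476 and 448 with hydrogen peroxide, and 295 and 302 with vehicle. Its log2 change with interleukin was 1.59 ± 0.24 (3.02-fold, adjusted p = 0.00169). The 3 probe sets thus gave the same direction but folds of 1.92 to 4.41. The lowest fold was that of 1457664_x_at, with signals of 770 and 606 with interleukin, 551 and 387 with hydrogen peroxide, and 416 and 304 with vehicle (adjusted p = 0.0417), and its adjusted p was 0.0623 to 0.247 when 1 of the interleukin or vehicle arrays was left out.

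Cfb, factor B of the alternative pathway, had signals of 2899 and 3250 with interleukin, 197 and 108 with hydrogen peroxide, and 135 and 19.2 with vehicle. The interleukin arrays lay far above the other 4, while the hydrogen peroxide and vehicle arrays overlapped at dim signals. The log2 change with interleukin was 5.91 ± 0.71 (adjusted p = 3.78e-04). The size of the fold depended on the dim vehicle arrays. It was 60.3 with both, 160-fold without vehicle array 1, 22.7 without vehicle array 2 and 33.5 with 32 added to every signal. Cfb and C2 are adjacent genes in RefSeq.

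C3ar1, the receptor for the anaphylatoxin released from C3, was dim throughout. Its 3 probe sets were below the limit for testing, with signals of 11.2 to 274 with interleukin, 58.9 to 150 with hydrogen peroxide and 10.9 to 74.1 with vehicle. The brightest of them had 60.1 and 274 with interleukin, 122 and 150 with hydrogen peroxide, and 74.1 and 10.9 with vehicle, so that the interleukin and vehicle arrays overlapped. When all probe sets were tested without a limit on signal, none of the 3 passed in any comparison (limma adjusted p = 0.306 to 0.986), where 5.98% of all probe sets passed with interleukin against vehicle, 1.69% with hydrogen peroxide against vehicle and 3.24% between the treatments. Its lowest unadjusted p with that setting was 0.0553.

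Cd55, the membrane regulator, was measured by 3 bright probe sets. Probe set 1460242_at had signals of 9164 and 8338 with interleukin, 9584 and 10208 with hydrogen peroxide, and 20323 and 17576 with vehicle. Both vehicle arrays stood above all 4 treated arrays. Its means were 8751 ± 585 with interleukin and 18950.0 ± 1942 with vehicle, and it fell by 1.11 ± 0.10 on the log2 scale with interleukin (adjusted p = 6.36e-05). Probe set 1418762_at had signals of 7827 and 8094 with interleukin, 7766 and 7124 with hydrogen peroxide, and 15946 and 13040 with vehicle. Probe set 1443906_at had 6609 and 6480 with interleukin, 6761 and 6089 with hydrogen peroxide, and 10941 and 9377 with vehicle. On both of them the vehicle arrays again lay above all treated arrays. These probe sets fell by 0.86 ± 0.11 (1418762_at, adjusted p = 6.5e-04) and 0.63 ± 0.11 (1443906_at, adjusted p = 0.00343). The last of these had adjusted p = 0.0533 without vehicle array 1, and the other pair passed without any of the arrays.

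**Figure D1:**
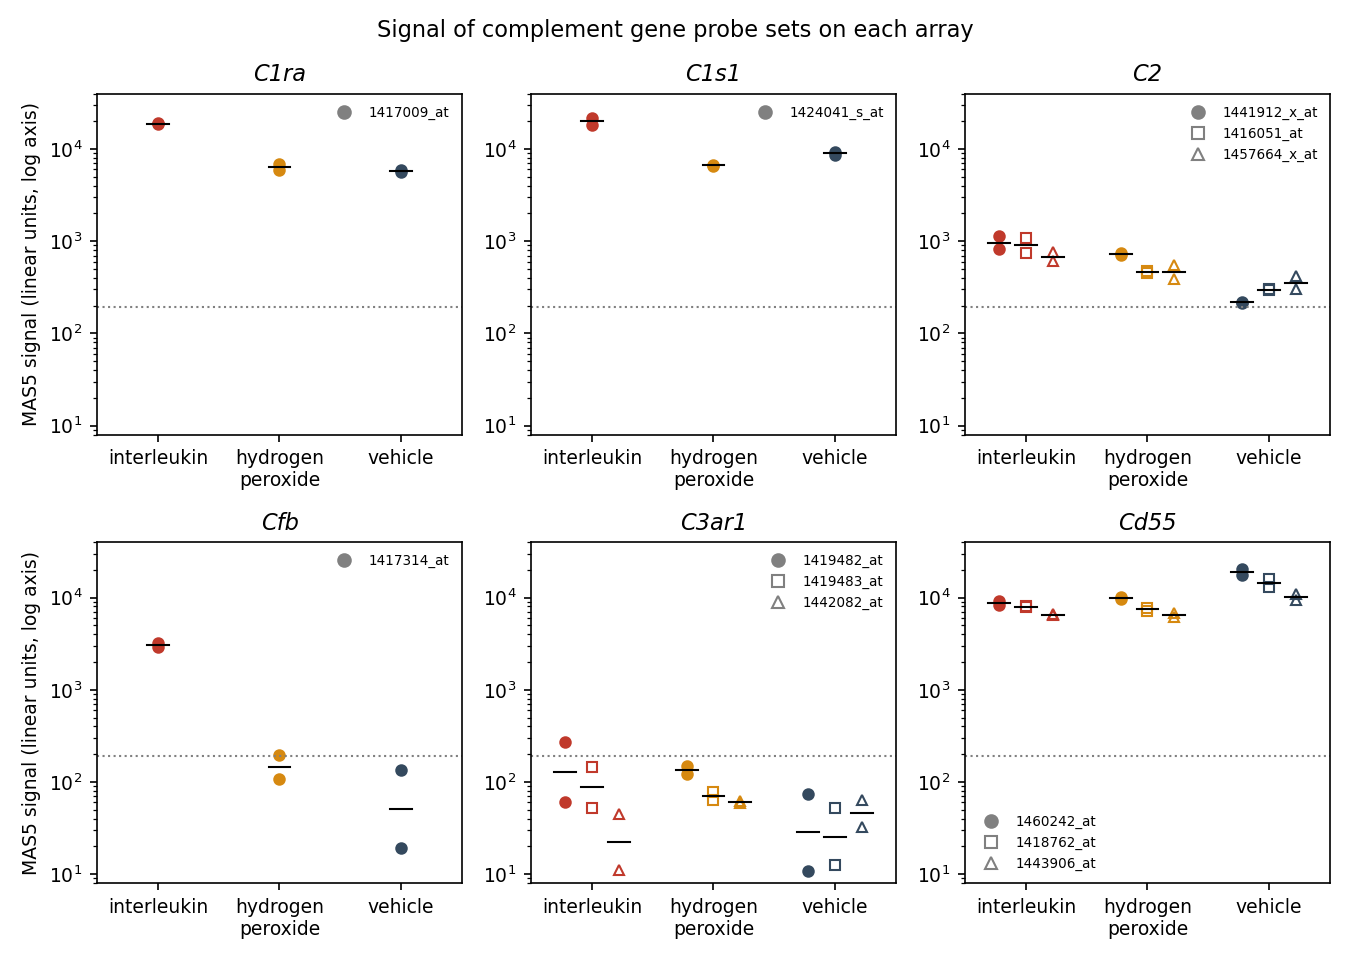
MAS5 signal (log axis) of the 12 probe sets of C1ra, C1s1, C2, Cfb, C3ar1 and Cd55 on each array. Points are single arrays of the interleukin, hydrogen peroxide and vehicle groups, black bars are geometric means of 2 arrays, marker shapes are probe sets and the dotted line is the limit on mean signal for testing (193.7). Interleukin arrays are the highest for C1ra, C1s1, C2 and Cfb, vehicle arrays are the highest for Cd55, and C3ar1 stays dim.

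Hydrogen peroxide against vehicle addressed the response of the same genes to an oxidant. Cd55 fell and 1 probe set of C2 rose, C1s1 fell by less, and C1ra and Cfb did not pass. Of the 9 tested probe sets 1 was higher, 4 were lower and 4 did not pass, where 5.69% of all tested probe sets passed, 3.05% higher and 2.65% lower. Cfb is counted among those that did not pass, although only its interleukin signal brought it into the test. Its geometric mean was 146 with hydrogen peroxide and 50.9 with vehicle, below the limit of 193.7. The arrays did not overlap on 7 of the 9, nor on 55.3% of all tested probe sets. Their median log2 change was 0.17, beside 0.02 over all tested probe sets. This comparison uses the same vehicle arrays as that of interleukin, so a low or high vehicle array moves both.

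All 3 probe sets of Cd55 fell with hydrogen peroxide. On 1460242_at the mean was 9896 ± 441 with hydrogen peroxide and 18950.0 ± 1942 with vehicle, a log2 change of -0.93 ± 0.10 (adjusted p = 0.00122). The other probe sets changed by -0.96 ± 0.11 (1418762_at, adjusted p = 0.00165) and -0.66 ± 0.11 (1443906_at, adjusted p = 0.00801). The last of these had adjusted p = 0.0537 without hydrogen peroxide array 2 and 0.0991 without vehicle array 1. The 3 Cd55 probe sets had adjusted p = 0.0683 to 0.105 in a fit with no variance trend on signal, where 57 of all tested probe sets passed against 1282 with the trend.

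The C2 probe sets differed in their response to hydrogen peroxide. On 1441912_x_at the mean was 729 ± 32.6 with hydrogen peroxide and 219 ± 2.76 with vehicle, a log2 change of 1.74 ± 0.23 (3.33-fold, adjusted p = 0.00304), and 0.244% of the tested probe sets had a change at least as high. On 1416051_at the change was 0.63 ± 0.24 (adjusted p = 0.158) and on 1457664_x_at it was 0.38 ± 0.28 (adjusted p = 0.46). Both arrays with hydrogen peroxide lay above both with vehicle on 1441912_x_at and 1416051_at, and the groups overlapped on 1457664_x_at. The call for C2 therefore rests on 1 probe set whose suffix marks possible matches to several transcripts.

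C1s1 fell by 0.42 ± 0.10 on the log2 scale with hydrogen peroxide (adjusted p = 0.0414). Its means were 6679 ± 91.6 with hydrogen peroxide and 8971 ± 435 with vehicle. It no longer passed when any 1 array of these groups was left out (adjusted p = 0.134 to 0.267), with no limit on signal (0.0837) or with no trend on signal (0.18). C1ra had a log2 change of 0.17 ± 0.10 (95% interval -0.06 to 0.40, adjusted p = 0.38). Cfb had 1.52 ± 0.71 (95% interval -0.05 to 3.09, adjusted p = 0.239), and this value was set by the vehicle arrays, since it was 2.93 without vehicle array 1 (adjusted p = 0.018) and 0.11 without vehicle array 2 (adjusted p = 0.931).

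**Figure D2:**
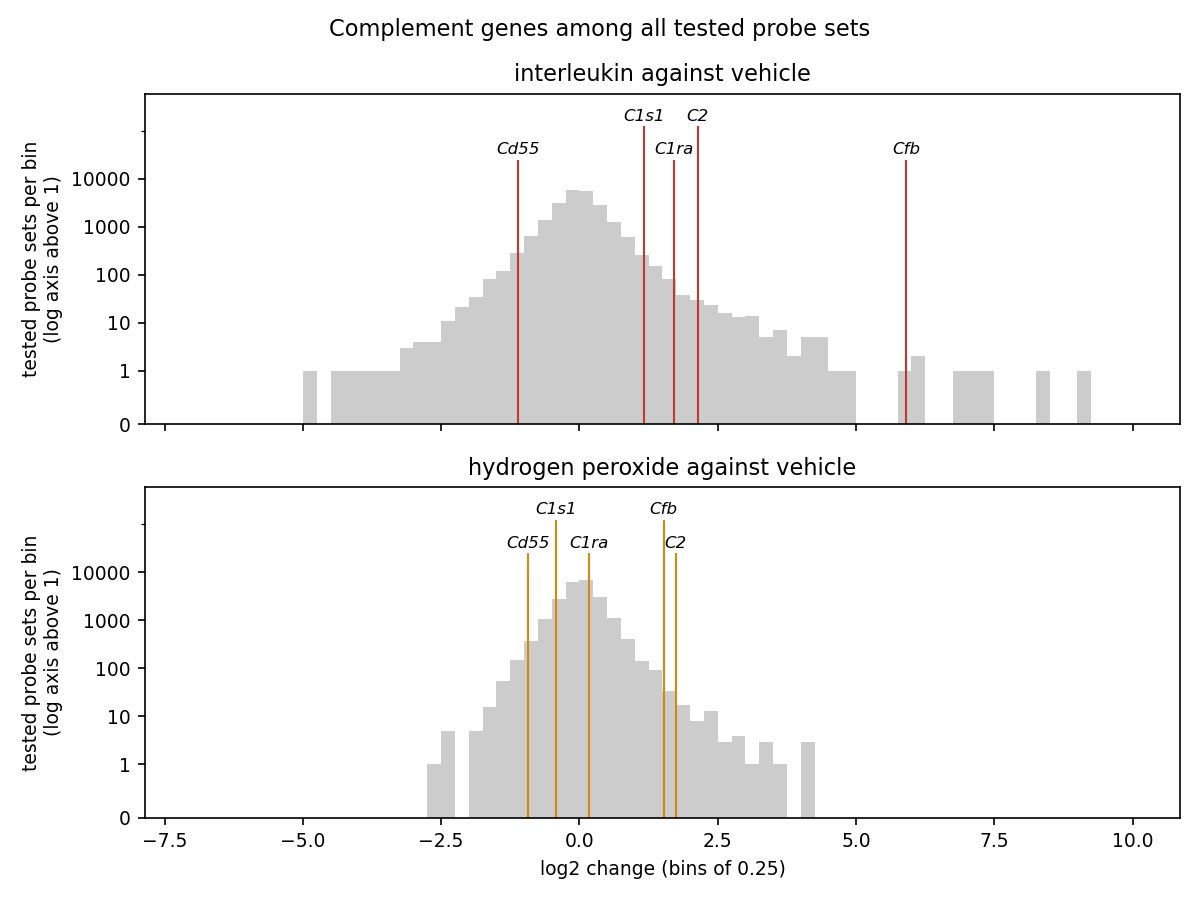
Number of tested probe sets (log axis above 1) by log2 change, in bins of 0.25, for interleukin against vehicle (top) and hydrogen peroxide against vehicle (bottom), with lines at the brightest tested probe set of each complement gene. With interleukin C1s1, C1ra, C2 and Cfb lie at 1.16, 1.71, 2.14 and 5.91 and Cd55 at -1.11, and with hydrogen peroxide C1ra lies at 0.17 within the bulk of the distribution.

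Interleukin against hydrogen peroxide gave the difference between the treatments directly. C1ra, C1s1, Cfb and 1 probe set of C2 were higher with interleukin, and no Cd55 probe set passed. Of the 9 tested probe sets 4 were higher, 0 were lower and 5 did not pass, where 8.82% of all tested probe sets passed, 4.95% higher and 3.87% lower. The 4 include Cfb, although only its interleukin signal brought it into the test. The geometric mean of Cfb with hydrogen peroxide was 146, below the limit on signal. The arrays did not overlap on 8 of the 9, nor on 51.7% of all tested probe sets. None of the 5 that did not pass had an unadjusted p under 0.05. The log2 difference was 1.54 ± 0.10 for C1ra (adjusted p = 9.22e-06), 1.58 ± 0.10 for C1s1 (adjusted p = 8.7e-06) and 4.39 ± 0.71 for Cfb (adjusted p = 0.00351). Without a trend on signal the adjusted p of Cfb was 0.0673.

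For C2 the difference between the treatments was 0.96 ± 0.24 on 1416051_at (adjusted p = 0.034), 0.40 ± 0.23 on 1441912_x_at (95% interval -0.11 to 0.92, adjusted p = 0.331) and 0.56 ± 0.28 on 1457664_x_at (adjusted p = 0.247). On all 3 probe sets both interleukin arrays lay above both hydrogen peroxide arrays. The 1416051_at call was lost without interleukin array 1 (difference 0.71, adjusted p = 0.164) and without either hydrogen peroxide array (adjusted p = 0.0811 and 0.153), and its adjusted p was 0.0551 without either vehicle array. For Cd55 the differences were -0.18 ± 0.10 (95% interval -0.40 to 0.05), 0.10 ± 0.11 (-0.15 to 0.35) and 0.03 ± 0.11 (-0.21 to 0.27), with adjusted p = 0.326 to 0.907.

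**Figure D3:**
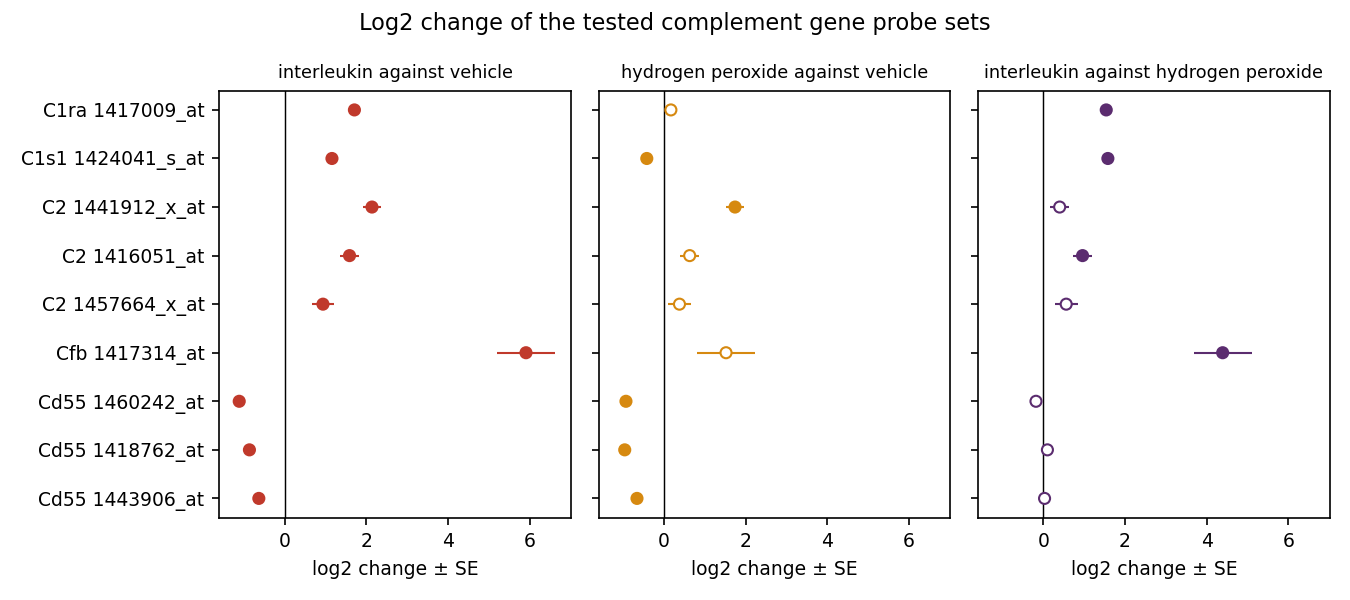
Log2 change ± SE of the 9 tested probe sets of C1ra, C1s1, C2, Cfb and Cd55 in the 3 comparisons, on a shared axis, with filled points where the adjusted p was under 0.05 and open points where it was not. Interleukin moved all 9, and the 3 Cd55 probe sets lie below 0 against vehicle with either treatment and near 0 between the treatments.

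Of 50 other complement genes from a list written from general knowledge, 41 had a probe set of their own and 8 were bright enough to be tested by their brightest probe set. With interleukin 2 of the 8 rose, 2 fell and 4 did not pass, with a median log2 change of 0.16, where 16.4% of genes passed by this measure, 9.78% higher and 6.61% lower, and the median over them was 0.03. With hydrogen peroxide 0 rose (limma, 2 higher at an unadjusted p under 0.05), 3 fell and 5 did not pass, with a median of -0.17, where 6.99% of genes passed, 4.08% higher and 2.91% lower, and the median was 0.06. Between the treatments 2 were higher with interleukin, 1 was lower and 5 did not pass, where 10.4% of genes passed, 6.3% higher and 4.06% lower. No gene of the terminal pathway and no complement receptor on the list reached the limit for testing, and neither did C1qa, C1qb or C1qc, the subunits of C1q, whose signals were 5.0 to 158 on the 6 arrays.

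Serping1, the inhibitor of C1r and C1s, had signals of 2570 and 2468 with interleukin, 363.5 and 363 with hydrogen peroxide, and 451 and 423 with vehicle. The interleukin arrays stood far above the rest, and the hydrogen peroxide arrays lay below the vehicle arrays. The log2 change was 2.53 ± 0.18 with interleukin (5.76-fold, adjusted p = 1.15e-05) and -0.27 ± 0.18 with hydrogen peroxide (adjusted p = 0.422). Between the treatments it was 2.79 ± 0.18 (adjusted p = 7.66e-06).

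Masp1, a protease of the lectin pathway, had signals of 5541 and 6659 with interleukin, 3231 and 3059 with hydrogen peroxide, and 4462 and 4416 with vehicle. The groups did not overlap, with interleukin highest and hydrogen peroxide lowest, the same order of groups as in C1s1 and Serping1. Its log2 change was 0.45 ± 0.12 with interleukin (adjusted p = 0.0284) and -0.50 ± 0.12 with hydrogen peroxide (adjusted p = 0.0391), and 0.95 ± 0.12 between the treatments (adjusted p = 7.33e-04). Both calls against vehicle were lost without either vehicle array (adjusted p = 0.138 and 0.151 with interleukin, 0.192 and 0.206 with hydrogen peroxide). The interleukin call was also lost without interleukin array 2 (0.123) and the hydrogen peroxide call without either of its own arrays (0.127 and 0.144). Of its 5 tested probe sets, 4 gave 0.90 to 0.97 between the treatments and 1419677_at gave -0.02. Against vehicle, 2 of the 5 passed with interleukin and 1 with hydrogen peroxide, where 1419677_at had a log2 change of 0.56 (adjusted p = 0.396), opposite in sign to the other 4.

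Cfp, properdin, which stabilises the alternative pathway enzyme, had signals of 445 and 434 with interleukin, 305 and 336 with hydrogen peroxide, and 767 and 720.0 with vehicle. These are of its brightest probe set, 1447537_at, on which both treatments lay below vehicle. Its other probe set, 1452279_at, was too dim to be tested, and either treatment overlapped with vehicle. It had 20.7 and 170 with interleukin, 15.2 and 127 with hydrogen peroxide, and 133 and 98.5 with vehicle. On 1447537_at the log2 change was -0.76 ± 0.22 with interleukin (limma adjusted p = 0.0436) and -1.22 ± 0.22 with hydrogen peroxide (adjusted p = 0.0128). Neither call held without vehicle array 1 (adjusted p = 0.23 with interleukin and 0.119 with hydrogen peroxide) or without vehicle array 2 (0.175 and 0.102). The interleukin call was also lost without either interleukin array (0.102 and 0.105), and the hydrogen peroxide call without hydrogen peroxide array 1 (0.0685).

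Thbd, thrombomodulin, a membrane cofactor that also restrains complement, had signals of 7677 and 8161 with interleukin, 11127 and 10194 with hydrogen peroxide, and 15984 and 15669 with vehicle. The 3 groups did not overlap, with vehicle at the top and interleukin at the bottom. Its mean was 7919 ± 343 with interleukin and 15826 ± 222 with vehicle (adjusted p = 6.36e-05). It fell by 0.57 ± 0.09 on the log2 scale with hydrogen peroxide (adjusted p = 0.0067). Between the treatments the difference was -0.43 ± 0.09 (adjusted p = 0.0159). The hydrogen peroxide call was lost without either vehicle array (adjusted p = 0.0766 and 0.0674), and that between the treatments without interleukin array 1 (0.0523) or either hydrogen peroxide array (0.101 and 0.0502).

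The other listed complement genes bright enough to be tested did not pass in any comparison, and Cr1l and C1qbp among them were named after their values were seen. Cr1l, the rodent membrane regulator Crry, averaged 3634 ± 77.0 with interleukin, 3697 ± 104 with hydrogen peroxide and 3477 ± 334 with vehicle. Cd59a, which blocks the membrane attack complex, averaged 843 ± 141 with interleukin, 1077 ± 126 with hydrogen peroxide and 684 ± 189 with vehicle (limma adjusted p = 0.387 with interleukin and 0.111 with hydrogen peroxide). Its other tested probe set, 1429830_a_at, did not pass either. That probe set had a log2 change with interleukin of -0.24, beside 0.32 on the brightest, and of 0.42 with hydrogen peroxide, beside 0.68. Clu, clusterin, averaged 2295 ± 329 with interleukin, 1871 ± 320 with hydrogen peroxide and 1951 ± 151 with vehicle. C1qbp, a mitochondrial protein that can bind C1q, averaged 23057 ± 1487 with interleukin, 26118 ± 279 with hydrogen peroxide and 21802 ± 194 with vehicle. Its log2 change with hydrogen peroxide was 0.26 (adjusted p = 0.0799), and 0.33 after quantile normalization, where it passed (adjusted p = 0.0323).

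**Figure D4:**
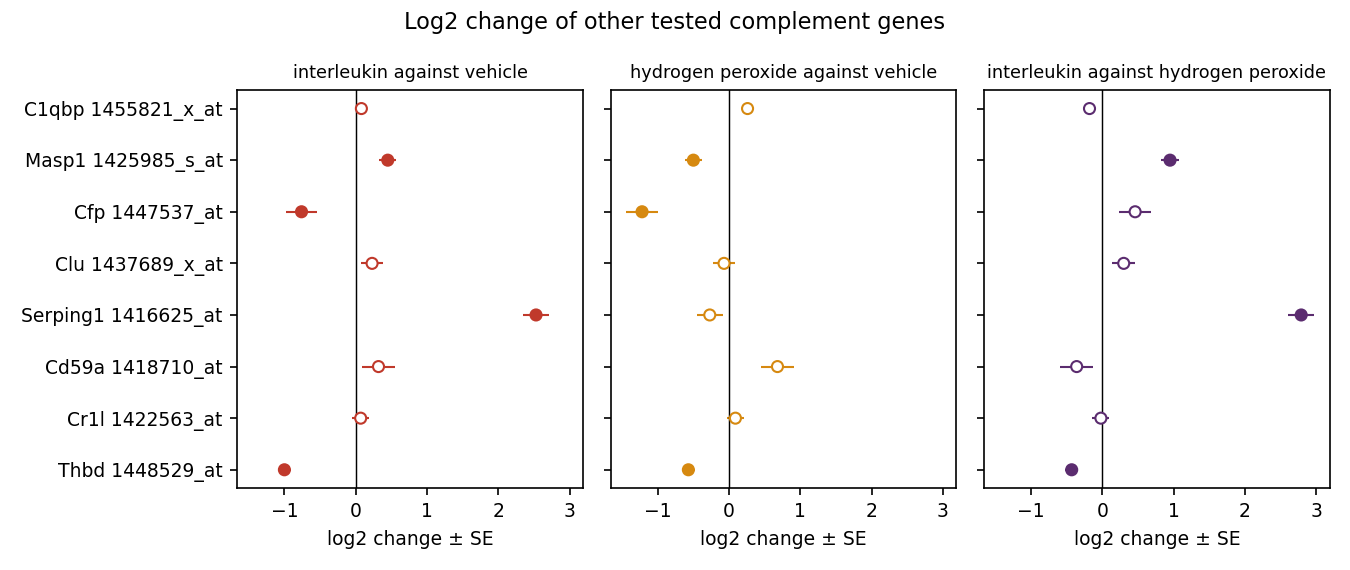
Log2 change ± SE of the brightest probe set of the 8 other complement genes that were tested, in the 3 comparisons, on a shared axis, with filled points where the adjusted p was under 0.05. Serping1 stands at 2.53 with interleukin and 2.79 between the treatments, and Thbd and Cfp lie below 0 with both treatments.

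Markers of other cell types, among them macrophages and hepatocytes, which also make complement proteins, were read beside these results. Of 12 leukocyte and macrophage markers 11 were on the array and 3 were tested. Cd68, a lysosomal glycoprotein, rose with interleukin and with hydrogen peroxide (log2 1.25 and 1.04, adjusted p = 0.00851 and 0.0419), and Cd14, a lipopolysaccharide co-receptor, rose with interleukin (0.90, adjusted p = 0.0013). The Cd68 calls were lost without interleukin array 1 or vehicle array 1 (adjusted p = 0.0567 and 0.0696 with interleukin) and without any 1 hydrogen peroxide or vehicle array (0.117 to 0.209 with hydrogen peroxide). Csf1r, the receptor of a macrophage growth factor, had log2 changes of 0.11 with interleukin and 0.30 with hydrogen peroxide and did not pass. The summed signal of the list was 6687 and 7820 with interleukin, 5044 and 4836 with hydrogen peroxide, and 4058 and 4040.4 with vehicle. Most of this sum was Cd14, with 4354 and 5415, 2895 and 2738.5, and 2627 and 2563 in the same order, so it says little of the other markers. The defining leukocyte marker Ptprc, which encodes CD45, had signals of 21.3 to 126 and overlapped between interleukin and vehicle. The macrophage marker Adgre1 had 155.5 and 253 with interleukin, 109.6 and 127 with hydrogen peroxide, and 129 and 101 with vehicle. Both interleukin arrays thus lay above all others on Adgre1. Both genes were too dim to be tested. All 6 hepatocyte markers on the array were too dim to be tested, with sums of 339 and 423 with interleukin, 350 and 353 with hydrogen peroxide, and 271 and 177 with vehicle. Apoh (152.5 and 213 against 77.7 and 67.8), Alb and Ahsg had both interleukin arrays above both vehicle arrays. Apoa1, Ttr and Fgb overlapped between these groups. Of the 6 tested smooth muscle, pericyte and stromal markers 3 rose with interleukin. These were the contractile genes Tagln (log2 1.56, limma adjusted p = 0.00892) and Acta2 (0.99, 0.00305) and the growth factor receptor Pdgfrb (0.56, 0.00327). Cspg4 (-0.63, limma adjusted p = 0.351), Col1a1 (-0.27, 0.0535) and Vim (-0.03, 0.783) did not pass with interleukin. Among the dim contractile genes, Cnn1 was lower with interleukin (117 and 99.1) than with vehicle (204 and 316). Myh11 had 29.5 and 136 with interleukin and 22.6 and 29.2 with vehicle, so only 1 interleukin array stood clearly above vehicle. With hydrogen peroxide the collagen gene Col1a1 fell (-0.74, 0.0013), and Acta2 had a log2 change of 0.62 (adjusted p = 0.0573, and 0.0045 without either interleukin array). The summed signal of this list was 124544 and 116110 with interleukin, 100645 and 97470 with hydrogen peroxide, and 114252 and 121306 with vehicle. Kdr, an endothelial growth factor receptor and the one endothelial marker tested, fell with interleukin (-0.60, limma adjusted p = 0.0194). The endothelial markers Tek, Cdh5 and Pecam1 were too dim to be tested, and Pecam1 had signals of at most 48.7. On these dim markers both interleukin arrays lay above both vehicle arrays. Tek had 164 and 331 against 61.9 and 139, and Cdh5 had 110 and 206 against 55.2 and 75.8. Tie1 and Vwf, also too dim, overlapped between interleukin and vehicle. The Tagln and Kdr calls were lost without interleukin array 1 (adjusted p = 0.073 for Tagln and 0.0983 for Kdr) or vehicle array 2 (0.0794 and 0.16). Neither of the 2 tested epithelial markers, Epcam and Aqp2, passed in any comparison. Of those too dim to be tested, Slc34a1, Aqp1 and Umod had both interleukin arrays above both vehicle arrays. Slc34a1 had 234 and 241 against 94.2 and 106, and Aqp1 had 324 and 267 against 211.5 and 211. Cdh1, Krt8 and Krt18 overlapped between interleukin and vehicle. The part of other cell types in the complement changes was not tested. Beta-actin control probe sets at the 3′ end were brighter than those at the 5′ end, which bears on RNA quality, by a factor of 1.46 and 1.55 with interleukin, 1.35 and 1.32 with hydrogen peroxide, and 1.22 and 1.26 with vehicle. Its part in the results was not tested.

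The genes whose log2 signals over the 6 arrays were most like those of Cfb, among 10891 others by their brightest tested probe set, were Gemin8, a protein of the SMN complex (Pearson r = 0.9935), the phosphodiesterase Pde5a (0.9932), the hyaluronan-binding protein Tnfaip6 (0.9929), the adhesion protein Nectin2 (0.9928) and the chemokine Ccl4 (0.9908). Ccl4, for instance, had signals of 511 and 502 with interleukin, 270.1 and 269 with hydrogen peroxide, and 248 and 188 with vehicle. Among the complement genes the coefficient with Cfb was 0.9474 for C1ra, 0.8058 for C1s1, 0.7651 for C2 and -0.7149 for Cd55, and 101 genes had a higher one than C1ra. That for C2 is of its brightest probe set alone, 1441912_x_at. The C2 probe sets differed with hydrogen peroxide, and coefficients of the others were not computed, so the place of C2 in this order is not firm. These coefficients are across 6 arrays in 3 treatment groups, and arrays of a group share a treatment, so the coefficients are a description of these arrays. They use the dim Cfb signals with hydrogen peroxide and vehicle, whose means lie below the limit for testing. Like Cfb, all 5 genes had lower signals on array 2 than on array 1 of both these groups. Neither the choice of the 5 genes nor their order is therefore firm. Their fold with interleukin was 1.49 to 3.09, beside 60.3 for Cfb.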

How the data were processed

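RNA of 6 As4.1 cultures was measured on 6 arrays. The deposited values are intensities, MAS5 signals on a linear scale per the submitters' processing notes, with a version not given in the sources used here. Log2 was taken of each signal without a pseudocount. After removal of 64 control probe sets from 45101, the 22519 at or above the median of mean log2 signal were tested with limma 3.58.1 in R 4.3.3 (lmFit, eBayes with a trend), on all 6 arrays with no block, and the steps were checked on simulated data. Array annotation gave 34945 probe sets 1 gene symbol, of which 34741 were matched to RefSeq by gene identifier, 932 had several and 9160 had none listed. Named genes were all members, other listed complement genes that passed in any comparison with 4 regulators, and the 5 genes most like Cfb. Single markers were named after their values were seen. The rule also named C3, which is not analysed here. Members, lists and motifs were chosen with earlier results of these data known. Alternatives covered normalization, pseudocount, signal filter, variance model, arrays used, replicate block and probe sets. Detection calls were not used here.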

Additional observations from a re-analysis of the deposited data

How the results depend on the processing

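The numbers of member probe sets passing (9 with interleukin and 5 with hydrogen peroxide against vehicle, 4 between the treatments) were the same after quantile normalization, 75th percentile centring, a pseudocount of 32 and with 4 arrays only. No result changed direction past the threshold under any alternative that was run. With no filter on signal the members passing were 8, 4 and 3 of 12 tested. With the stricter filter they were 5 of 5 with interleukin and 2 of 5 between the treatments, and with 1 probe set per gene 5 of 5 with interleukin and 3 of 5 with hydrogen peroxide, since fewer probe sets were tested. Without probe sets of several transcripts 3 of 6 passed with hydrogen peroxide. Without a trend on signal 1 passed with hydrogen peroxide and 2 between the treatments, and the cause was not tested. Leaving out 1 array gave 7 to 9 with interleukin, 3 to 5 with hydrogen peroxide and 3 to 4 between the treatments. Of the other complement genes, 2 passed with interleukin under the stricter filter and 1 with hydrogen peroxide without a trend, and leaving out 1 array gave 2 to 4 with interleukin, 0 to 3 with hydrogen peroxide (0 without either vehicle array) and 2 to 3 between the treatments. Where limma called 0 of these 8 genes, 5 without vehicle array 1 and 4 without vehicle array 2 had an unadjusted p under 0.05.

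Over all probe sets, 3627 passed with interleukin, 1783 without a trend, 2128 with 1 probe set per gene, and 1554 to 3583 without 1 array. With hydrogen peroxide 1282 passed, 762 with no filter, 57 without a trend, 825 without probe sets of several transcripts and 235 to 1751 without 1 array, and centring on the 75th percentile moved the split of 686 higher and 596 lower to 602 and 879. Between the treatments 1987 passed, 716 without a trend and 839 to 1919 without 1 array.

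Arrays of the groups share replicate numbers, but nothing in the labels says that a number marks a shared batch, and deviations of arrays of the same number correlated at 0.053, 0.107 and -0.129 between groups. With the replicate block 9, 4 and 4 member probe sets passed, 3, 2 and 3 of the other complement genes, and 3342, 1170 and 1756 of all probe sets, in the order of interleukin, hydrogen peroxide and the direct comparison. The calls that the block ended were C1s1 with hydrogen peroxide (adjusted p = 0.0523), Masp1 with hydrogen peroxide (0.0527), Cfp with interleukin (0.0602) and the marker Cd68 with hydrogen peroxide (0.059). Dim signals such as those of Cfb with vehicle and of C3ar1 limit the precision of their changes.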
